A study of Mus musculus with 36 samples.

Results

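The 8 genes described here are serpins of the mouse brain: *Serpinb2*, the clade B serpins *Serpinb8*, *Serpinb1a*, *Serpinb6a*, *Serpinb6b* and *Serpinb9*, and the 2 brain serpins *Serpini1* and *Serpine2*. They were taken by symbol from the 24421 genes of the count tables, in which 63 genes carry a serpin symbol. *Serpinb2* was chosen by its cerebellar level, which rose with the loss of *Pogz*, so its cerebellar values, including every comparison that uses them, are given as a description without a test. The other 7 were chosen as neighbours or relatives of *Serpinb2*, to see whether its rise was shared.

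Cerebellum and hippocampus were dissected from the same 18 adult C57Bl/6 mice for sequencing of poly(A) RNA, with 6 mice (3 males and 3 females) of each genotype. Control mice were Pogzfl/fl and carried no Cre. The cKO+/- mice were NesCre/+; Pogzfl/+ and the cKO-/- mice NesCre/+; Pogzfl/fl, so that 2, 1 and 0 intact alleles were left in the nervous system of control, cKO+/- and cKO-/- mice. Cre was driven by the *Nestin* promoter, which is active in neural progenitors, and cells of other origin, such as microglia and blood vessels, are not its main target. No group carried Cre without a floxed allele, so effects of Cre and of the deletion cannot be told apart in comparisons with the controls, whereas cKO+/- and cKO-/- mice both carried Cre.

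The cerebellar libraries held 21421850 to 32544929 counts and the hippocampal libraries 17609321 to 45544188. The level of *Pogz* fell in both tissues, from 99.6 ± 15.2 CPM (counts scaled to a library of 1000000) in control to 65.8 ± 7.34 CPM in cKO-/- cerebellum (SD, n = 6), and from 90.9 ± 1.24 (n = 6) to 61.7 ± 3.55 CPM (n = 5) in the hippocampus. Gene counts include exons outside the floxed part, so a residual level does not measure the deletion. Summed markers of cerebellar granule cells ran from 4124 to 4936 CPM in control cerebella and from 28.2 to 214 CPM in control hippocampi. In cKO+/- and cKO-/- hippocampi these sums reached at most 35.5 and 35.8 CPM. For *Gabra6*, a marker in this sum, 1 control hippocampus held 1773 of the 1843 hippocampal counts. This control was kept in the fits, and the cause was not tested. The hippocampal library of the cKO-/- female Sample_1160 was left out of the hippocampal fits, and its values are given where they matter. The study states that an RNA sample was excluded but does not name it, and this library was chosen with earlier results of these data known. Animal numbers Sample_1120 to Sample_1219 hold every control, whereas 3 cKO+/- and 4 cKO-/- animals have numbers outside this range. What the numbers stand for is not stated, so the cerebellar slopes of the members are also given within the range.

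Serpins are protease inhibitors that present an exposed loop as bait, and most of them trap the protease that cuts the loop in a covalent complex. Clade B serpins lack a classical secretion signal and act largely inside cells, where they guard against misplaced proteases. *Serpinb2* encodes plasminogen activator inhibitor 2, an inhibitor of urokinase that is known for its strong induction in activated macrophages and for induction by synaptic activity in hippocampal neurons. *Serpini1* encodes neuroserpin, a secreted neuronal inhibitor of tissue plasminogen activator, and *Serpine2* encodes protease nexin 1, a secreted inhibitor of thrombin and urokinase made largely by glia.

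*Serpinb2* lies at chr1:107511423-107525600 on the plus strand (GRCm38, the build that the coordinates of the tables match), and *Serpinb8* lies downstream of it on the same strand, at chr1:107590006-107608978. The remaining clade B members lie together on chromosome 13, *Serpini1* on chromosome 3 and *Serpine2* on chromosome 1, at chr1:79794321-79858665. The 250 bases before the starts of *Serpinb2* and *Serpinb8* are shown. Both clade B members rose with allele loss in the cerebellum, *Serpinb2* by its choice. They are RefSeq sequences of GRCm38.p6, at chr1:107511173-107511422 and chr1:107589756-107590005 on the plus strand. Capitals mark matches on either strand to 3 motifs, which are TATAAA as a form of the TATA box, the heptamer TGANTCA as a form of AP-1 sites and the octamer TGACNTCA as a form related to cAMP-response elements. No match overlapped another.
Serpinb2: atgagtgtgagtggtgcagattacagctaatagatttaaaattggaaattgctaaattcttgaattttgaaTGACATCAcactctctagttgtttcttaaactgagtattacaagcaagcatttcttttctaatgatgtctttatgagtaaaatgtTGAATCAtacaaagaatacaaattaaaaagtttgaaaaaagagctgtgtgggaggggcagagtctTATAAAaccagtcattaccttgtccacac
Serpinb8: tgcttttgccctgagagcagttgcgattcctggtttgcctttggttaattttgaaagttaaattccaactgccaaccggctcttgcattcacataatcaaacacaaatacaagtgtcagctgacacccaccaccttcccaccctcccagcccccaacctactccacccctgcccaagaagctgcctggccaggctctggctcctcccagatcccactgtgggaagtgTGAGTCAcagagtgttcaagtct
The *Serpinb2* window held 1 match to each motif, TATAAA beginning 29 bases before the start, the heptamer 94 bases and the octamer 179 bases before it. The *Serpinb8* window held the heptamer, 23 bases before the start, and neither of the others. A window of 250 bases was found for 7 of the 8 members, and the other 5 held none of the motifs. Among all 32841 windows of this length, 12.37% held TATAAA, 6.751% held the heptamer and 7.491% held the octamer. The *Serpinb2* window contained 0 CpG dinucleotides and the *Serpinb8* window 2, against a median of 6 over all windows and 34 before *Serpine2*. These matches describe the letters alone.

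*Serpinb2* was close to absent from control cerebella and rose in steps with each *Pogz* allele lost. Control libraries held 4 to 22 counts, or 0.151 CPM at the lowest, 0.464 at the median and 0.780 at the highest. The cKO+/- libraries ran from 1.56 CPM through a median of 2.75 to 3.83 CPM, and the cKO-/- libraries from 9.82 through 14.4 to 23.98 CPM. Every cKO+/- library lay above every control and below every cKO-/- library. The mean of cKO+/- was 6.30 times that of the controls, and the mean of cKO-/- was 5.37 times that of cKO+/- and 33.9 times that of the controls. The step from control to cKO+/- was 2.63 ± 0.324 on the log2 scale (SE), and the slope over the 3 genotypes was 2.51 ± 0.147 per allele lost. By this slope *Serpinb2* was number 8 of the 14027 genes tested in the cerebellum. The control mean rests on 77 counts over 6 libraries, so the folds are imprecise on their lower side.

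The cKO+/- level of *Serpinb2* lay near the midpoint of the other genotypes on the log2 scale, with a departure of 0.10 ± 0.239 (95% interval from -0.36 to 0.57). The sexes were close, at 0.00 ± 0.242 for male minus female in the cerebellum (95% interval from -0.47 to 0.48).

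**Figure D1:**
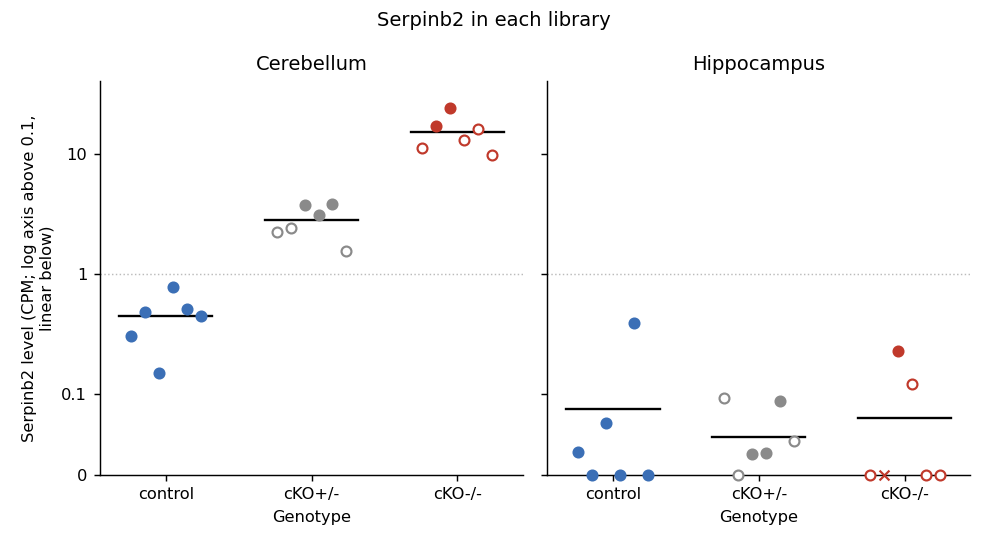
Level of Serpinb2 in every library, in CPM on a log axis above 0.1 and a linear axis below, by genotype in the cerebellum and the hippocampus. Filled circles are animals numbered Sample_1120 to Sample_1219, open circles other animals, the cross is animal Sample_1160 and bars are means without it. The dotted line marks 1 CPM. The 3 cerebellar genotypes do not overlap, whereas the hippocampal genotypes do.

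In the hippocampus of the same animals *Serpinb2* stayed near 0. All 18 hippocampal libraries together held 41 counts, with 0 counts in 8 of them, where a floor of 3 counts corresponds to between 0.0690 and 0.172 CPM. The highest library was the control Sample_1190 with 16 counts (0.395 CPM), followed by the cKO-/- animal Sample_1219 with 8 counts (0.232 CPM), and animal Sample_1219 also held the highest cerebellar level. Control hippocampi averaged 0.0813 ± 0.156 CPM (SD, n = 6), cKO+/- hippocampi 0.0471 ± 0.0386 CPM (n = 6) and cKO-/- hippocampi 0.0706 ± 0.104 CPM (n = 5). *Serpinb2* was below the filter of 1 CPM in 6 libraries and was not fitted there. The groups overlapped, and a difference between control and cKO-/- was not detected by a 2-sided exact permutation test (difference of -0.0108 CPM, p = 0.935, smallest possible p = 0.00433). The cerebellar level was higher in every one of the 17 animals compared. No fold between the tissues is given, because the hippocampal means rest on few counts, of which Sample_1190 and Sample_1219 hold most. Bulk RNA cannot tell fewer cells of a type from less RNA per cell, here and in the comparisons below.

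*Serpinb8*, whose product can inhibit the proprotein convertase furin, was the other clade B member that rose in the cerebellum. Control libraries ran from 2.27 CPM through a median of 2.92 to 3.66 CPM, cKO+/- libraries from 3.47 through 3.84 to 5.47 CPM, and cKO-/- libraries from 3.40 through 5.25 to 7.63 CPM. The lowest cKO-/- library lay inside the control range, and the 2 highest were the cKO-/- animals Sample_1160 and Sample_1219. The slope was 0.46 ± 0.095 per allele lost (edgeR adjusted p = 0.00476), or 1.37-fold per allele against 5.70-fold for *Serpinb2*. It kept this direction and passed the test without each animal in turn (slopes from 0.40 to 0.52). In the hippocampus *Serpinb8* averaged 3.55 ± 0.786 CPM in controls (SD, n = 6), 2.78 ± 0.853 in cKO+/- (n = 6) and 3.55 ± 1.22 in cKO-/- (n = 5), and its slope of -0.02 ± 0.123 had an adjusted p of 0.962. The difference between the cerebellar and the hippocampal slope was 0.48 ± 0.159 and did not pass the edgeR test of the interaction (adjusted p = 0.134). It passed without animal Sample_1385 (0.66, adjusted p = 0.0227).

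*Serpini1* rose in the cerebellum as well, by a small factor from a high level. Control libraries ran from 204 CPM through a median of 237 to 281 CPM, cKO+/- libraries from 247 through 256 to 309 CPM, and cKO-/- libraries from 270 through 319 to 389 CPM. The control and cKO-/- groups overlapped at their edges. The slope was 0.23 ± 0.044 per allele lost (edgeR adjusted p = 0.00261), with 1.17-fold per allele, and its interval from 0.14 to 0.32 lies far below that of *Serpinb2* (2.22 to 2.80). In the hippocampus *Serpini1* went from 200 ± 26.4 CPM in controls (n = 6) to 236 ± 44.7 CPM in cKO-/- mice (n = 5), with a slope of 0.12 ± 0.058 (adjusted p = 0.251).

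The clade B members of chromosome 13 and *Serpine2* had positive cerebellar slopes that did not pass the test. *Serpinb1a*, an inhibitor of neutrophil elastase, proteinase 3 and cathepsin G, averaged 12.4 ± 2.16 CPM in controls and 16.996 ± 4.19 CPM in cKO-/- cerebella (SD, n = 6; slope 0.23 ± 0.091, edgeR adjusted p = 0.0934). *Serpinb6b*, a close paralog of *Serpinb6a*, went from 1.70 ± 0.463 to 2.58 ± 0.929 CPM (0.30 ± 0.113, adjusted p = 0.0829). *Serpinb9*, the inhibitor of granzyme B, went from 9.49 ± 0.962 to 12.02 ± 2.76 CPM (0.17 ± 0.077, adjusted p = 0.138). In each of these the cKO-/- libraries spread more widely than the controls and overlapped them. *Serpinb6a*, an intracellular inhibitor of cathepsin G, stayed between 26.6 ± 3.06 and 29.5 ± 5.34 CPM (0.07 ± 0.055, adjusted p = 0.380). *Serpine2* averaged 92.1 ± 7.05 CPM in controls and 111 ± 31.98 CPM in cKO-/- cerebella (0.14 ± 0.086, adjusted p = 0.292).

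**Figure D2:**
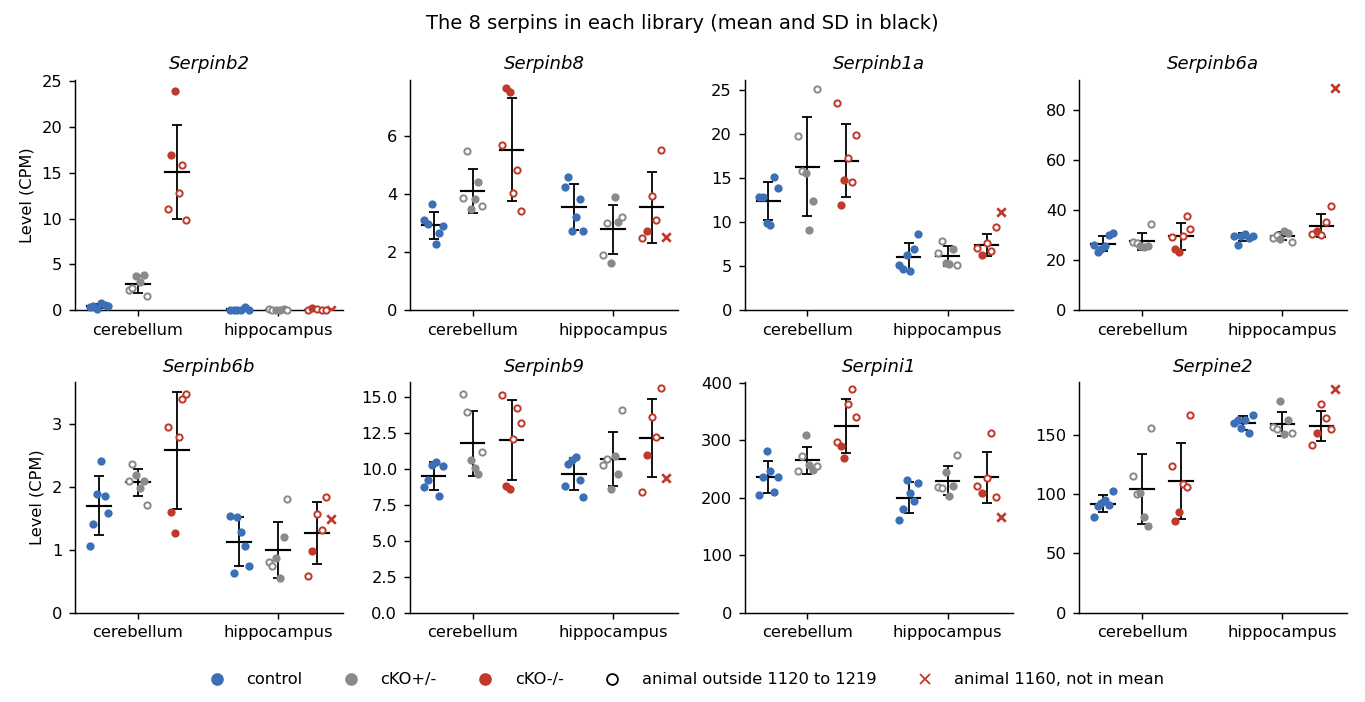
Level of the 8 serpins in every library, in CPM from 0, for the cerebellum (left of each panel) and the hippocampus (right), with the 3 genotypes in blue (control), grey (cKO+/-) and red (cKO-/-). Black bars are the mean and SD, open circles are animals outside the numbers Sample_1120 to Sample_1219 and crosses are animal Sample_1160. Serpinb2 alone has separate genotypes, and the hippocampal cross of Serpinb6a stands at 88.7 CPM.

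Apart from *Serpinb2*, whose rise was fixed by its choice, 2 of the 7 members were called in the cerebellum (*Serpinb8* and *Serpini1*), both higher, where 13.7% of the 14027 genes tested were called, 7.11% higher and 6.55% lower. The median slope was 0.231 for these 7 members and 0.000867 for all genes tested. All cKO-/- libraries lay above all controls for *Serpinb2* alone, where 2.67% of all genes did, and in the hippocampus for none of the 7 tested, where 1.53% did. The members were chosen with these values known; these counts are a description.

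**Figure D3:**
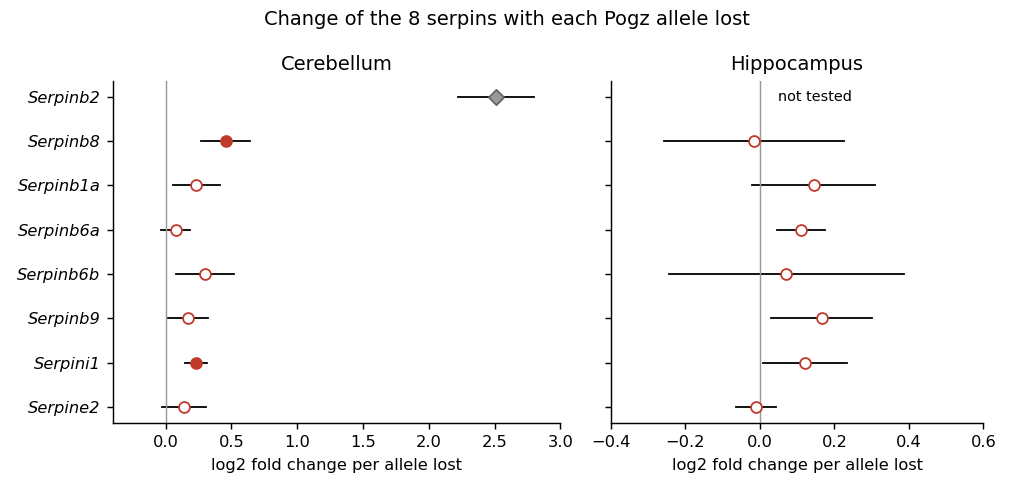
Slope of each serpin per Pogz allele lost on the log2 scale, with its 95% interval, in the cerebellum and the hippocampus. Filled circles passed the edgeR test, open circles did not, and the grey diamond is Serpinb2, given without a test. The cerebellar slope of Serpinb2 is 2.51 and that of the next member, Serpinb8, 0.46; the 2 panels have different scales.

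In the hippocampus none of the 7 members tested was called by edgeR, where 4.44% of 14339 genes were called. An unadjusted p under 0.05 was found for 2 of them, and DESeq2 called 1. This was *Serpinb6a*, at 29.0 ± 1.59 CPM in controls (n = 6), 29.5 ± 1.63 in cKO+/- (n = 6) and 33.8 ± 4.71 CPM in cKO-/- mice (n = 5). Its cKO-/- libraries began at 30.1 CPM, just inside the control range, which ended at 30.4 CPM. The slope of 0.11 ± 0.033 had an edgeR adjusted p of 0.0642, and of 0.0371 by DESeq2. *Serpinb9* had a slope of 0.17 ± 0.069 (adjusted p = 0.188), as large as its cerebellar slope. *Serpine2*, at 160 ± 5.65 CPM in control and 158 ± 12.9 CPM in cKO-/- hippocampi, had a slope of -0.01 ± 0.027, with an interval from -0.06 to 0.04.

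The left-out hippocampal library of animal Sample_1160 had the highest *Serpinb6a* of all libraries, 88.7 CPM, against at most 41.4 CPM in the other hippocampi. It was also the highest of the hippocampal cKO-/- group for *Serpinb1a* (11.1 CPM) and *Serpine2* (188 CPM) and the lowest for *Serpini1* (166 CPM). The cerebellar library of the same animal had 24.5 CPM of *Serpinb6a*, within the control range of 23.1 to 30.8 CPM. *Serpinb6a* shares exon bases with 1110046J04Rik on the opposite strand, and the counting is not stated to use strand, so its counts are uncertain. With all 18 libraries its hippocampal slope was 0.26 (adjusted p = 0.210), where 1.72% of genes were called.

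The difference in slope between the tissues was called for none of the 7 members tested in both, where 1.49% of 13587 genes were called (1 member at an unadjusted p under 0.05, *Serpinb8*). Apart from *Serpinb2*, sex differences were called for none of the members in either tissue, where 0.0499% of cerebellar and 0.907% of hippocampal genes were called. An unadjusted p under 0.05 was found for *Serpinb1a* in the cerebellum (0.38 ± 0.146 higher in males) and for *Serpinb6a* in the hippocampus (-0.14 ± 0.053 in males), and DESeq2 called none. Departures of cKO+/- from the midpoint were likewise called for none, by edgeR or DESeq2 and at an unadjusted p under 0.05, with 0.0214% of cerebellar and 0 hippocampal genes called.

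Compared per length of exon, the brain serpins led and *Serpinb2* came last in control tissue. In the control cerebellum *Serpini1* stood at 75.3 ± 8.83 CPM per kb, *Serpine2* at 44.8 ± 3.43, *Serpinb6a* at 14.1 ± 1.62, *Serpinb1a* at 6.46 ± 1.13 and *Serpinb9* at 2.79 ± 0.283 CPM per kb (SD, n = 6). *Serpinb6b* (0.915 ± 0.249 CPM per kb) and *Serpinb8* (0.889 ± 0.141) did not differ beyond their spread, and *Serpinb2* stood at 0.218 ± 0.104 CPM per kb. In cKO-/- cerebella *Serpinb2* reached 7.37 ± 2.51 CPM per kb, a level between those of *Serpinb1a* (8.86 ± 2.18) and *Serpinb9* (3.54 ± 0.814) and overlapping the first. In the control hippocampus *Serpine2* led with 77.8 ± 2.75 CPM per kb, ahead of *Serpini1* with 64.0 ± 8.43.

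The control tissues differed for 4 of the 7 members tested by edgeR, where 71.9% of 14224 genes did. DESeq2 called 5 of them, and 5 had an unadjusted p under 0.05. *Serpine2* was higher in the hippocampus by 0.89 ± 0.057 on the log2 scale (adjusted p = 8.03e-09), and *Serpinb1a* was lower there by -0.95 ± 0.141 (adjusted p = 3.92e-05). *Serpine2* was higher in the hippocampus in 6 of 6 control animals, and *Serpinb1a* lower in 6 of 6. *Serpinb6a* was higher in the hippocampus by 0.22 ± 0.077 (adjusted p = 0.0215) and *Serpinb6b* lower by -0.54 ± 0.217 (adjusted p = 0.0395). With the animal as a block *Serpinb6b* no longer passed (adjusted p = 0.0636). *Serpinb2* was left out of this comparison by the filter, and no difference is given for it. Its control hippocampi held 20 counts, of which 16 were in Sample_1190.

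Around *Serpinb2* on chromosome 1, *Serpinb8* was the one neighbour called in the cerebellum. Within 1000000 bases of its start lay 16 other genes, of which 4 were tested in the cerebellum and 1, *Serpinb8*, was called. Over all cerebellar genes tested 13.7% were called. *Bcl2*, the apoptosis regulator, went from 29.0 ± 5.21 to 37.3 ± 9.33 CPM in the cerebellum (0.18 ± 0.071, edgeR adjusted p = 0.0949). In the hippocampus, where 4.44% of all genes were called, *Bcl2* was called (0.15 ± 0.042, edgeR adjusted p = 0.0421). This hippocampal call was lost without each of 11 animals. Among animals Sample_1120 to Sample_1219 alone *Bcl2* was also called in the cerebellum (0.31, edgeR adjusted p = 0.00614), where 277 of 14027 genes were. *Kdsr*, an enzyme of sphingolipid synthesis (0.03 ± 0.029), and *Vps4b*, an ATPase of membrane scission (-0.01 ± 0.028), had intervals close to 0.

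Most of the clade B genes between and beside them were at or near 0 in the cerebellum. *Serpinb10*, whose start lies 17580 bases downstream of that of *Serpinb2* and before *Serpinb8*, had 13 counts over all 18 cerebellar libraries, 2 in controls and 6 in cKO-/-. In the cerebellum *Serpinb13*, *Serpinb3a*, *Serpinb3d* and *Serpinb3b* had 0 counts, and *Serpinb7*, *Serpinb11*, *Serpinb12* and *Serpinb3c* had 1 to 3 counts each. *Serpinb5*, known as maspin and starting 650243 bases before *Serpinb2*, had 4 counts in the 6 controls (0 to 2 per library), 10 in cKO+/- (0 to 5) and 35 in cKO-/- (3 to 9). Its cKO-/- counts lay above all control counts, but *Serpinb5* was below the filter, passed when no filter was applied (slope 1.61, adjusted p = 0.0157), and was singled out after its values were seen. In the hippocampus *Serpinb7* had 93 counts over all libraries. It averaged 0.0573 ± 0.0274 CPM in controls (SD), 0.168 in cKO+/- and 0.262 ± 0.105 CPM in cKO-/- mice. *Serpinb7* was below the filter there, was not tested and was also named after its values were seen.

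**Figure D4:**
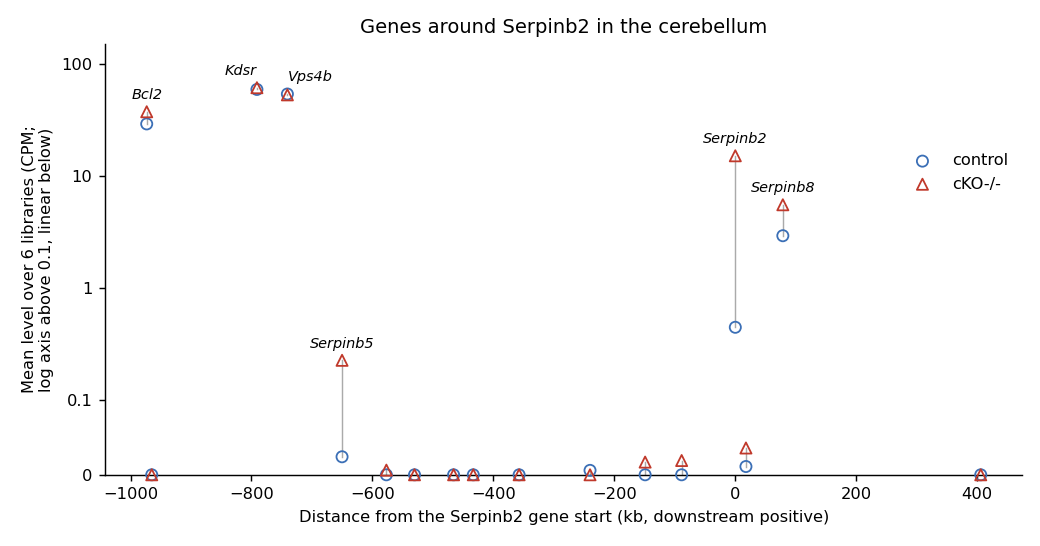
Mean cerebellar level of the genes within 1000000 bases of the Serpinb2 start, in CPM (log axis above 0.1, linear below), against distance from that start in kb. Circles are control and triangles cKO-/- means over 6 libraries, and grey lines join the 2 means of a gene. Serpinb2 goes from 0.446 to 15.1 CPM and Serpinb8, 78583 bases downstream, from 2.92 to 5.52 CPM, while Kdsr and Vps4b hardly move and the genes between have next to no counts.

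Across the whole family, 15 of the 63 serpins were tested in the cerebellum and 4 were called higher, *Serpinb2* among them by its choice, and none lower, where 7.11% of all genes were called higher and 6.55% lower. The family count was 2 with a term for animal numbers outside Sample_1120 to Sample_1219, where 2.2% of all genes were called. It was 7 without animal Sample_1219, a fit for which the share of all genes is not given. The fourth was *Serpind1*, the thrombin inhibitor heparin cofactor II, from 7.27 ± 0.929 to 13.3 ± 4.59 CPM (0.43 ± 0.096, edgeR adjusted p = 0.00722), and it lies on chromosome 16. Of the 12 clade B genes on chromosome 1, *Serpinb2* and *Serpinb8* were tested. Of the 15 on chromosome 13, 5 were tested and none was called. In the hippocampus 14 serpins were tested and none was called by edgeR, with 4 at an unadjusted p under 0.05 and 2 called by DESeq2.

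Reads in sequence shared between genes can be counted on the wrong one, so shared sequence was measured in the GENCODE vM1 transcripts of an earlier build. Of the windows of 43 bases (the read length) in the transcripts of *Serpinb8*, 0.427% occurred in another gene, against 1.79% for *Serpinb2* and 0% for *Serpine2*. The share was 4.74% for *Serpinb1a*, 3.44% for *Serpinb6b*, 1.36% for *Serpini1*, 1.19% for *Serpinb9* and 9.04% for *Serpinb6a*, for which most were shared with *Ripk1*. The coding sequence of *Serpinb2* was 61.7% to 64.1% identical over aligned bases to those of the other 7, and that of *Serpinb6a* was 86.4% identical to *Serpinb6b*. Identity with *Serpinb2* was 62.4% for *Serpinb8* and highest for *Serpinb9*. The 42 shared windows of *Serpinb2* were all shared with *Serpinb10-ps*. Whether shared sequence moved reads between genes was not tested.

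Proteases that these serpins face, and other genes of their cascades, were taken from 2 lists. Of 18 listed genes of the plasminogen and thrombin system, 10 were tested in the cerebellum and 1 was called, *Serpind1*, where 13.7% of all genes were. An unadjusted p under 0.05 was found for 5, and DESeq2 called 3. The matching shares of all genes are not given, so these counts are a description. *Plau*, which encodes urokinase, the main target of *Serpinb2*, went from 0.994 ± 0.179 to 1.01 ± 0.361 CPM (0.02 ± 0.118, adjusted p = 0.942). *Plat*, which encodes tissue plasminogen activator, the target of *Serpini1*, went from 66.6 ± 8.30 to 60.9 ± 9.55 CPM (-0.06 ± 0.057, adjusted p = 0.476). *Plaur*, the urokinase receptor, and *Plg*, plasminogen, were below the filter, at 0.753 and 0.141 CPM in control cerebella. Of 11 other target proteases, 5 were tested, 3 had an unadjusted p under 0.05 and 1 rose, *Pcsk5*, a relative of furin, from 2.22 ± 0.442 to 3.71 ± 1.301 CPM (0.37 ± 0.119, adjusted p = 0.0443). This call was lost without each of 11 animals, and neither *Pcsk5* nor *Serpind1* was called with the term for animal numbers. *Furin* itself went from 67.3 ± 4.89 to 60.3 ± 5.44 CPM (-0.08 ± 0.033, adjusted p = 0.118). In the hippocampus none of the 10 and 6 genes tested of these lists was called by edgeR, with 5 and 2 at an unadjusted p under 0.05 and 1 and 0 called by DESeq2.

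Among all genes tested, the cerebellar pattern of *Serpinb2* was most like that of *Dach2* (Pearson r of log2 CPM 0.955 over 18 libraries), *Mgl2* (0.949), *Amelx* (0.946), *Phex* (0.946) and *Tlr4* (0.942). *Serpinb8* came at place 138 (r = 0.743) and *Serpini1* at place 191 (0.711). These libraries share the 3 genotypes, so any gene that moves in steps with genotype scores high. After sex and genotype means were taken out, r with *Serpinb2* was 0.0593 for *Serpinb8*, -0.21 for *Serpini1*, -0.45 for *Serpinb9*, -0.55 for *Serpinb1a* and -0.58 for *Serpine2*.

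Among mice of the same genotype, *Serpinb2* was lower in animals with numbers outside Sample_1120 to Sample_1219. Within cKO-/- mice the 2 animals inside the range had 16.96 and 23.98 CPM and the 4 outside it 9.82 to 15.9 CPM. Within cKO+/- mice the 3 inside had 3.07 to 3.83 CPM and the 3 outside 1.56 to 2.43 CPM. The groups did not overlap in either genotype, and the fitted term for animals outside the range was -0.73 ± 0.190, given without a test. *Serpinb8* had 7.53 and 7.63 CPM inside and 3.40 to 5.68 CPM outside in cKO-/- mice. In cKO+/- mice its values overlapped, at 3.47 to 4.42 CPM inside and 3.58 to 5.47 CPM outside, and over both genotypes it had a term of -0.27 ± 0.172 (adjusted p = 0.352).

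The terms of the other 6 members were positive, and 3 of them passed. *Serpine2* was higher outside the range by 0.57 ± 0.123 (adjusted p = 0.0117), with 106 to 167 CPM outside against 77.3 and 85.0 CPM inside in cKO-/- mice. *Serpinb1a* was higher by 0.56 ± 0.131 (adjusted p = 0.0159) and *Serpinb9* by 0.54 ± 0.094 (adjusted p = 0.00449). The terms of *Serpinb6b* (0.53 ± 0.211), *Serpinb6a* (0.30 ± 0.094) and *Serpini1* (0.12 ± 0.090) did not pass. In cKO+/- mice alone the mean of *Serpini1* was 259 CPM outside and 271 CPM inside, and that of *Serpinb6b* 2.05 and 2.08 CPM. Apart from *Serpinb2*, 3 of 7 members were called for this term, where 9.2% of cerebellar genes were, 6.65% higher and 2.55% lower. In the hippocampus none of 7 was called, where 0 genes were, and none had an unadjusted p under 0.05.

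Beside this term, with which 2.2% of cerebellar and 0.474% of hippocampal genes were called for allele loss, the cerebellar slope of *Serpinb2* was 2.71 and that of *Serpinb8* 0.53 (adjusted p = 0.00648), while that of *Serpini1* was 0.19 and no longer passed (adjusted p = 0.0718). Among only the 11 animals inside the range the slopes were 2.74, 0.65 (adjusted p = 0.00179) and 0.13 (adjusted p = 0.255), with 2 cKO-/- animals left. The slopes of *Serpinb6a*, *Serpinb6b*, *Serpinb9* and *Serpine2* were then below 0 and did not pass, from -0.10 to -0.04. The slope of *Serpind1* fell to 0.05 (adjusted p = 0.695).

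**Figure D5:**
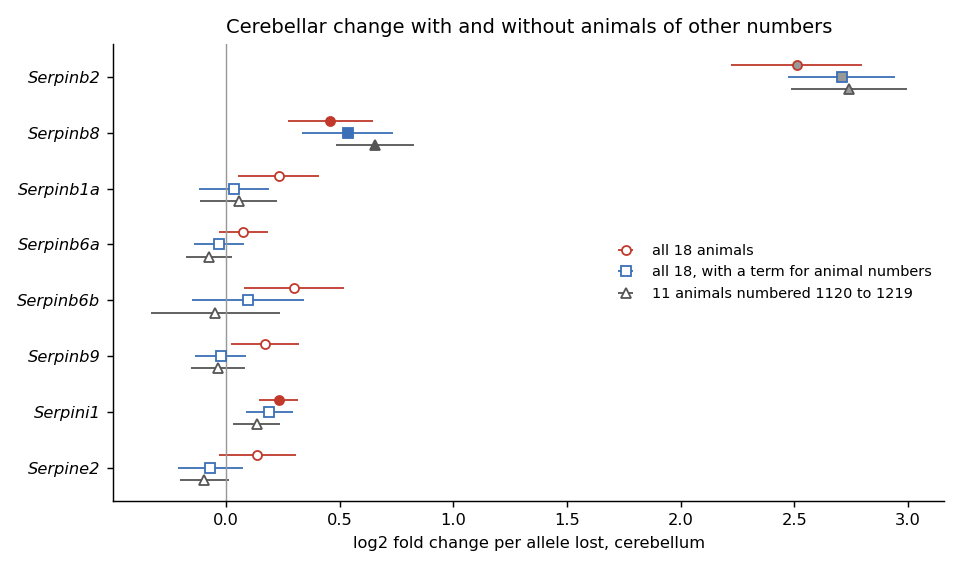
Cerebellar slope of each serpin per Pogz allele lost on the log2 scale with its 95% interval, for all 18 animals (circles), with a term for animal numbers outside Sample_1120 to Sample_1219 (squares) and for the 11 animals inside that range (triangles). Filled symbols passed the edgeR test, open ones did not, and the grey symbols of Serpinb2 are given without a test. Serpinb2 and Serpinb8 keep their slopes, and the members of chromosome 13 and Serpine2 lie around 0 once the range is considered.

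Some markers of other cells were called for genotype or for the range in the cerebellum. Of all cerebellar genes, 13.7% were called for allele loss and 9.2% for the range. Of 5 microglial markers 2 rose with allele loss (*Cx3cr1* and *P2ry12*), with summed levels of 62.7 to 69.9 CPM in controls, 63.7 to 107 in cKO+/- and 64.0 to 107 CPM in cKO-/- mice. Of 6 meningeal fibroblast markers 5 rose, with summed levels of 180 to 256 CPM in controls and 263 to 504 CPM in cKO-/- mice, and all 6 were higher outside the range. Choroid plexus markers were called for 0 of 3 by allele loss (1 by DESeq2 and 1 at an unadjusted p under 0.05) and were higher outside the range for 3 of 3, with sums of 11.5 to 16.8 CPM in controls and up to 3141 CPM in cKO+/- and 2996 CPM in cKO-/- mice. The granule cell markers were called for 0 of 4 by allele loss (1 at an unadjusted p under 0.05, 0 by DESeq2). They were lower outside the range for 4 of 4. Border macrophage markers rose for 1 of 3 (*Mrc1*), astrocyte markers for 3 of 5 and oligodendrocyte markers for 1 of 5, and 1 of 5 endothelial markers fell. Purkinje cell markers were called for 0 of 4 (1 at an unadjusted p under 0.05, 0 by DESeq2), and 2 of 3 markers of hippocampal neurons rose. None of the 5 monocyte and neutrophil markers passed the filter, and their sum was at most 5.10 CPM. With the term for animal numbers 2.2% of all genes were called for allele loss. Of the microglial, border macrophage, endothelial, oligodendrocyte and hippocampal neuron markers 0 were then called. Of the astrocyte markers 1 was called and of the meningeal markers 4. Among animals Sample_1120 to Sample_1219 alone the same 5 lists had 0 calls, and astrocyte and meningeal markers 2 each. Without single animals the border macrophage call was lost in 12 of 18 fits, the endothelial call without Sample_1190, and the oligodendrocyte count ran from 0 to 3 and that of hippocampal neurons from 0 to 2. The part of these cells in the serpin levels was not tested.

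In the hippocampus, where no member was called, 0 of 5 microglial markers were called (0 at an unadjusted p under 0.05 and 0 by DESeq2), and their summed level was 188 to 265 CPM in controls, above that of the cerebellum. Over all hippocampal genes 4.44% were called by edgeR. Of 5 astrocyte markers 1 rose (*Aqp4*, 0.35, edgeR adjusted p = 0.00388). Of 5 endothelial markers 1 rose (*Pecam1*, 0.27, edgeR adjusted p = 0.0482), and 0 to 2 were called without single animals. Of 4 markers of hippocampal neurons 1 fell (*Wfs1*, -0.50, edgeR adjusted p = 0.000875). The choroid plexus, border macrophage, oligodendrocyte, granule cell and Purkinje cell markers tested had 0 calls. Of the 6 meningeal markers 1, *Lum*, was called higher there by edgeR and 2 by DESeq2, with 5 at an unadjusted p under 0.05. Their median slope was 0.52 here, against a cerebellar median of 0.49, and without single animals 0 to 4 were called, with 4 without Sample_1129.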

How the data were processed

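Gene counts of 36 libraries from 18 mice were analysed. Per the labels, the authors made poly(A) libraries, aligned paired reads of 43 bp with STAR and deposited whole-number counts per gene without normalization; the labels name mm9, while the coordinates of the tables match GRCm38, and the annotation release and the use of strand are not given in the sources used here. Groups, sexes and animal numbers came from the sample labels.

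Library sizes were scaled by TMM in edgeR 4.0.16, run in R 4.3.3, to give CPM. A gene entered the tests if 6 or more libraries exceeded 1 CPM. The quasi-likelihood model of edgeR (its earlier form) was fitted with sex and the number of alleles lost (0, 1, 2), and Benjamini-Hochberg adjustment over all genes tested at an FDR of 0.05. Intervals are 95% intervals from the SE. The shares of all genes given are those called by edgeR. Counts at an unadjusted p under 0.05 or by DESeq2 have no such share beside them and cannot show a surplus. The hippocampal fit used 17 libraries. The term for the range of animal numbers was added to this fit. The midpoint was a contrast in a fit with sex and genotype as a factor. The tissue difference came from a fit of the control libraries of both tissues with sex, filtered on their own. The tissue-by-allele term came from a joint fit of both tissues with sex, over genes that passed the filter in both. Alternatives were DESeq2 1.42.0, relative log expression factors, no filter, the bias-adjusted fit, no sex term, genotype as a factor and each animal left out; the fit on animals Sample_1120 to Sample_1219 alone was chosen after seeing the data. Both tissues came from the same animals by their numbers; deviations from group means of the same animal correlated with a median of 0.22 (from -0.15 to 0.43, 15 of 17 animals above 0.1). The fits were tested on simulated data. Members, gene lists and motifs were chosen with earlier results of these data known. The 5 genes most like *Serpinb2* were named by Pearson r of log2 CPM (prior count 2), and other named genes are members, their neighbours and listed genes. One listed cell marker is not reported here. Sequences are from RefSeq; protein sequences were not used here. Depths of 17609321 to 45544188 counts leave genes under 1 CPM with few counts, and p-values measure the spread between animals.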

Additional observations from a re-analysis of the deposited data

Results flagged for a closer look

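In 48 groups of 6 libraries (8 genes, 2 tissues and 3 genotypes), 4 held a library far from the others by Dixon's test, where chance alone flags about 1 in 20 groups. For *Serpinb6a* in the hippocampus of cKO-/- mice, animal Sample_1160 stood at 88.7 CPM, with the next library at 41.4 and the lowest at 30.1 CPM. For *Serpinb6a* in control hippocampi, animal Sample_1155 was lowest at 25.9 CPM, with the next at 28.9 and the highest at 30.4 CPM. For *Serpinb6a* in the cerebellum of cKO+/- mice, animal Sample_1433, outside the numbers Sample_1120 to Sample_1219, was highest at 34.4 CPM, with the next at 27.3 CPM. For *Serpinb2* in control hippocampi, animal Sample_1190 stood at 0.395 CPM, which is 16 counts, with the next at 0.0649 CPM; in the cerebellum of this animal *Serpinb2* stood at 0.512 CPM, within the control range.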

How the results depend on the processing

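The cerebellar calls numbered 3 with *Serpinb2*, whose call was fixed by its choice, so its part in these counts is a description. The count remained 3 with DESeq2, relative log expression factors, no filter, the bias-adjusted fit, no sex term and genotype as a factor. It became 2 with the term for animal numbers and among animals Sample_1120 to Sample_1219. Leaving out single animals gave 3 to 6 calls, with 5 without animal Sample_1160 and 6 without animal Sample_1219, the cKO-/- animals inside the range. The share of all genes called is not given for any fit without a single animal. Counts from such fits, for the members and for every list, are therefore a description. The hippocampal count of 0 became 1 (*Serpinb6a*) with genotype as a factor and with DESeq2, and 0 to 1 without single animals (1 without animal Sample_1120); the cause was not tested. The interaction count was 0 to 1 without single animals (1 without animal Sample_1385). In control tissues the 4 calls became 5 with DESeq2 and stayed 4 with relative log expression factors. Without the filter *Serpinb2* enters this comparison, so that count is not given. Leaving out single animals gave 2 to 3 calls, 2 without animal Sample_1172, where fewer libraries were fitted. With the animal as a replicate block 3 calls remained, and the block changed no call other than that of *Serpinb6b*. The interaction count with the animal as a replicate block was 0.

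With the term for animal numbers the cerebellar slope turned to -0.0329 for *Serpinb6a*, -0.0246 for *Serpinb9* and -0.0696 for *Serpine2*, and the hippocampal slope to -0.0521 for *Serpinb6b* and 0.00220 for *Serpine2*. Among animals Sample_1120 to Sample_1219 it turned in the cerebellum to -0.0740 for *Serpinb6a*, -0.0476 for *Serpinb6b*, -0.0358 for *Serpinb9*, -0.0961 for *Serpine2* and -0.0234 for *Pcsk5*, and in the hippocampus to -0.0325 for *Serpinb1a* and -0.137 for *Serpinb6b*. With all 18 hippocampal libraries the slope of *Serpine2* was 0.0120. Without single animals the hippocampal slope ran from -0.141 to 0.0533 for *Serpinb8*, from -0.0306 to 0.141 for *Serpinb6b* and from -0.0305 to 0.00604 for *Serpine2*, and the cerebellar midpoint departure of *Serpinb2* from -0.0284 to 0.243. *Pcsk5* lost its call without each of 11 animals, and *Bcl2* in the hippocampus without each of 11. *Serpinb2* levels near 0 in the hippocampus are limited by depth.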
